A study of Mus musculus with 123 samples.

Results

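The genes described here are the peroxisome proliferator-activated receptors (PPARs) Ppara, Ppard and Pparg, their heterodimer partner Rxra, and the PPAR-gamma coactivator 1 (PGC1) genes Ppargc1a and Ppargc1b. They were taken by symbol from a table of liver mRNA, and all 6 were found among its 15398 genes. The liver libraries came from mice fed a high fat diet (HFD, 61 libraries) or a low fat diet (LFD, 62 libraries). Each diet was combined with Long, Short or Equal light, and livers were collected at 6 zeitgeber times (ZT), 4 h apart, from ZT0 to ZT20. This gave 36 groups of 3 or 4 libraries. The sources used here name no strain, age, sex, animal, fat content or number of light hours for any group, and they do not say which light event ZT0 marks. Nothing says that libraries of a group came from separate animals, so p-values measure the spread between these libraries.

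PPARs are nuclear receptors that are activated by fatty acids and their derivatives and bind DNA as heterodimers with retinoid X receptors. PPAR-alpha is the form best known in hepatocytes, where it drives fatty acid oxidation and ketogenesis in fasting. PPAR-gamma is the adipocyte form, which in fatty liver is known for its part in lipid storage, and PPAR-delta is broadly expressed. PGC1-alpha and PGC1-beta do not bind DNA themselves. They dock on PPARs and other receptors and raise the transcription of genes of mitochondrial respiration, fatty acid oxidation and, for PGC1-alpha, gluconeogenesis.

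Library depth was 13970000 to 39090000 counted reads with a median of 24060000, as recovered from the steps of the deposited values. The means of 8 hepatocyte markers lay between 12.29 and 13.27 log2 CPM (read counts scaled to a common library total) in every library. In 19 libraries, 5 HFD and 14 LFD, the mean of skeletal muscle or pancreas acinar markers was above 4 log2 CPM. In 9 libraries, 4 HFD and 5 LFD, 15 core clock and clock output genes pointed to a time more than 4 h from the labelled ZT. They were replicate 3 at ZT4, 1 at ZT12 and 2 at ZT16 of HFD in Equal light, replicate 2 at ZT0 of HFD in Short light, replicate 1 at ZT8 and 2 at ZT16 of LFD in Long light, replicate 3 at ZT0 and 4 at ZT16 of LFD in Short light, and replicate 4 at ZT12 of LFD in Equal light. The median deviation over all libraries was 1 h. This check was prompted by Ppard values that disagreed within groups, and its limit was chosen after the data were seen. Results are given with all libraries, and values without the 9 are set beside those that change. Removing libraries on clock genes favours stronger rhythms by construction.

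Rxra and Ppara had the highest mRNA levels of the family. Per kilobase of exon, Rxra averaged 6.50 ± 0.28 log2 CPM per kb (SD, n = 61 HFD and 62 LFD libraries) and Ppara 5.62 ± 0.41. Ppard averaged 1.47 ± 1.23 on the same scale, Pparg 0.98 ± 0.79, Ppargc1a 0.93 ± 0.45 and Ppargc1b 0.49 ± 0.65. These 4 means differed by less than the SD of Ppard, which spans all times of day and is not the error of a mean. An order among them was not tested. Rxra and Ppara did not overlap with them in any library, as the lowest Ppara level was 4.24 log2 CPM per kb, against a highest Ppard level of 3.76. Ppard varied most between libraries and Rxra least. A library held at least 41 reads of Ppargc1b and 48 of Pparg, the genes with the fewest, and at least 4490 of Rxra. In whole liver tissue such as this, fewer cells of a type and less RNA per cell cannot be told apart.

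The genes are on different chromosomes of the GRCm38 assembly (GENCODE M21 annotation), and all are annotated as protein coding. Ppara lies at chr15:85734983-85802819 on the plus strand, Ppard at chr17:28232700-28301474 (plus), Pparg at chr6:115360951-115490399 (plus), Ppargc1a at chr5:51454250-51567726 (minus) and Rxra at chr2:27676440-27762957 (plus). RefSeq start sites were matched for 5 of the 6 genes and gave 8 upstream windows of 250 bases. The windows before the Ppara and Ppard starts are shown because these genes had the clearest rhythms of the 3 receptors. Those of Pparg and Ppargc1a are shown because these genes differed between diets. Of the 3 Pparg windows only that of the second start is printed. The window of the third start, at chr6:115421816-115422065, holds neither of the motifs marked here. Capitals mark AGGTCA, the hexamer that nuclear receptors including PPAR-RXR dimers bind in repeats, and TGACG, the core of the cAMP response element.
Ppara, chr15:85735526-85735775, plus strand: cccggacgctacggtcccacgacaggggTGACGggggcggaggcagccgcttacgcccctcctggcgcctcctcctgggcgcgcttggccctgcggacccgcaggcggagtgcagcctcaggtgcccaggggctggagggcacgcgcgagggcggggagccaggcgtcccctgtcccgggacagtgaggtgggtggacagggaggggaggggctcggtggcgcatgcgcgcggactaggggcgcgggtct
Ppard, chr17:28232504-28232753, plus strand: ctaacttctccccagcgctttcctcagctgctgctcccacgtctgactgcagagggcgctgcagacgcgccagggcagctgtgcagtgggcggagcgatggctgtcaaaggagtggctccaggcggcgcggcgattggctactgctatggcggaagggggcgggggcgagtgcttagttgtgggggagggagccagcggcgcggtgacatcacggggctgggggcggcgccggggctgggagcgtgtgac
Pparg, second start, chr6:115362099-115362348, plus strand: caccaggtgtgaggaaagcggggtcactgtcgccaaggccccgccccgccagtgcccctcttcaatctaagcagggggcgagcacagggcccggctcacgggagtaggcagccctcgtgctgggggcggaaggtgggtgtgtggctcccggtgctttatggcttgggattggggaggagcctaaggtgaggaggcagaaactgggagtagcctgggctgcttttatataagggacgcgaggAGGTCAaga
Ppargc1a, chr5:51567726-51567975, minus strand: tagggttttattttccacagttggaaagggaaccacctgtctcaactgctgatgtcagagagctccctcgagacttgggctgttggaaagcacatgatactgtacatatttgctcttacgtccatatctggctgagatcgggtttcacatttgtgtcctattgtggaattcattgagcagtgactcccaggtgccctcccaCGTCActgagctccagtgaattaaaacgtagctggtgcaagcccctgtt
AGGTCA was found on either strand in the windows of the first and second Pparg starts and in that of the second Rxra start, and 14.02% of 32851 mouse windows of this length hold it. TGACG was found in the Ppara and Ppargc1a windows, 222 and 49 bases before the start, against 17.77% of all windows. The clock-related E-box CACGTG (6.02% of all windows), the D-box TTATGNAA (3.07%) and the full cAMP response element TGACGTCA (1.55%) were not among the letters of any of the 8 windows. A match or its absence says only which letters are in these windows.

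The first question was which of these genes differed between HFD and LFD livers. Pparg and Ppara rose and Ppargc1a fell on HFD. The differences were tested with limma over 14397 genes, with 1 mean per group of diet, photoperiod and ZT and Benjamini-Hochberg adjustment, and 25.5% of all genes tested passed the adjusted p of 0.05 (12.9% higher and 12.6% lower on HFD). Thus 3 of the 6 genes passed.

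Pparg had the largest diet difference of the 6 genes. Its level lay between 1.49 and 4.48 log2 CPM in HFD livers (median 3.06), against 1.07 to 4.24 in LFD livers (median 2.07). The ranges overlapped widely, but 51 of 61 HFD libraries were above the LFD median and only 4 of 62 LFD libraries were above the HFD median. The log2 difference was 0.80 (SE 0.13, 1.74-fold, adjusted p = 4.071e-07). Group means were higher on HFD in 17 of the 18 combinations of photoperiod and ZT, ZT12 in Equal light being the exception. In 5 combinations every HFD library was above every LFD library. In Equal light at ZT8, for example, the HFD livers had 4.09, 3.47 and 3.54 log2 CPM, against 2.19, 2.23 and 2.67 in LFD livers. HFD libraries of a single group also differed widely among themselves, as in Short light at ZT8, where they had 1.914, 3.656, 3.764 and 1.796 log2 CPM against 2.18, 2.05 and 2.20 in LFD livers. At this ZT the groups overlapped.

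Ppara, the receptor of the fasting response, had levels between 6.89 and 8.42 log2 CPM in HFD livers (median 7.70), against 6.18 to 8.37 in LFD livers (median 7.34). Of the 61 HFD libraries, 51 lay above the LFD median. The log2 difference was 0.26 (SE 0.05, 1.198-fold, adjusted p = 0.0001288), and group means were higher on HFD in 17 of 18 combinations. In Long light at ZT4 the HFD livers had 7.04, 7.35 and 7.31 log2 CPM, against 7.11, 6.47, 7.04 and 6.85 in LFD livers. These groups overlapped at their edge, and the HFD libraries did not overlap with the LFD libraries in 4 of the 18 combinations.

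Ppargc1a moved the other way. It lay between 2.51 and 4.39 log2 CPM in HFD livers (median 3.55), against 2.80 to 4.73 in LFD livers (median 3.89). Of the HFD libraries, 53 of 61 were below the LFD median. The log2 difference was -0.33 (SE 0.07, 1.26-fold lower, adjusted p = 0.0002241), and group means were lower on HFD in 17 of 18 combinations. In Equal light at ZT8 the HFD livers had 3.61, 3.85 and 3.82 log2 CPM and the LFD livers 4.36, 4.35 and 3.90, with no overlap. The 3 diet calls held under every alternative processing that was run, with log2 differences of 0.65 to 0.96 for Pparg, 0.22 to 0.29 for Ppara and -0.43 to -0.31 for Ppargc1a. Without the 9 libraries off the clock label they were 0.88, 0.28 and -0.34.

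Ppard, Rxra and Ppargc1b did not pass the test between diets. Ppard had a median of 3.74 log2 CPM in HFD livers and 4.20 in LFD livers, and the log2 difference was -0.25 (SE 0.12, adjusted p = 0.1225). Without the 19 libraries with high muscle or pancreas signal it was -0.41 (adjusted p = 0.03164). Rxra had medians of 8.99 log2 CPM in HFD livers and 8.93 in LFD livers, a log2 difference of 0.08 (SE 0.04, adjusted p = 0.1602). Its lowest library was from HFD in Equal light at ZT20 (7.72 log2 CPM, against 8.73, 8.93 and 9.03 in the rest of that group). Without that library the difference was 0.10 (adjusted p = 0.04754). It was picked after its value was seen, and leaving out a low HFD value raises the difference by construction. Ppargc1b had medians of 2.47 log2 CPM in HFD livers and 2.43 in LFD livers, and a log2 difference of -0.01 with a 95% interval of -0.17 to 0.15 (adjusted p = 0.9422).

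**Figure D1:**
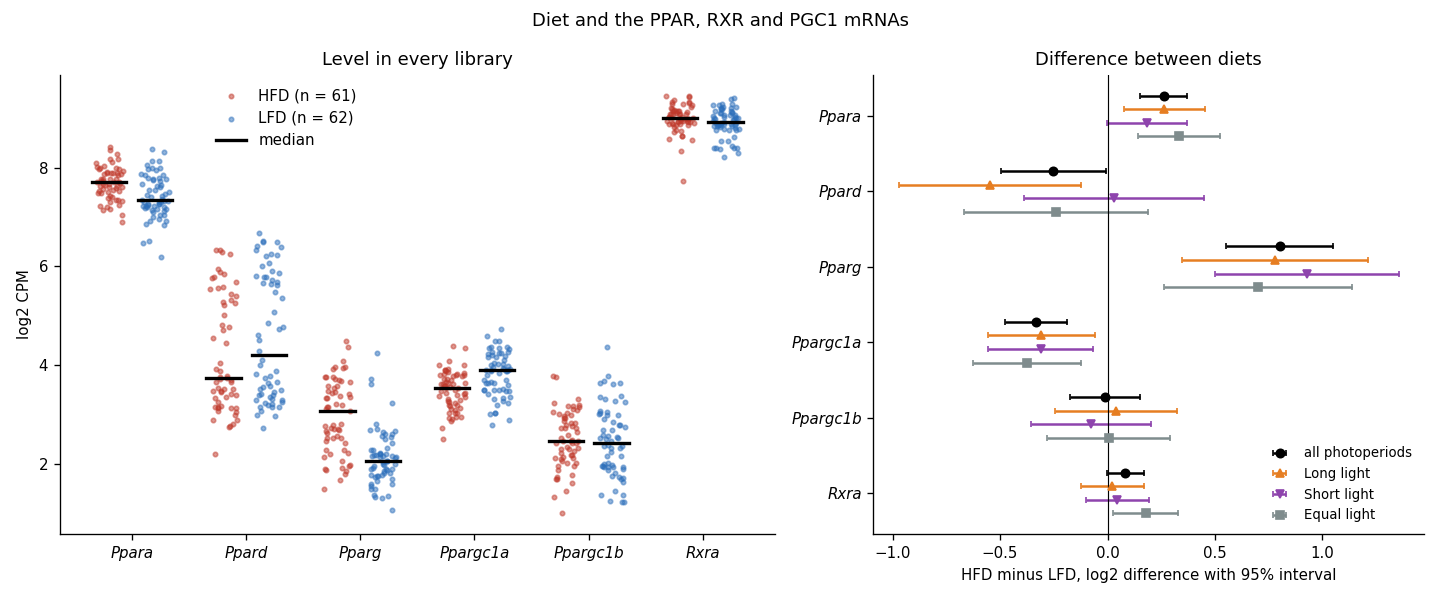
Level of each gene in log2 CPM in every HFD and LFD library with the median (left), and the log2 difference HFD minus LFD with its 95% interval over all photoperiods and within each (right). The Pparg intervals lie above 0 in all 3 photoperiods and the Ppargc1a intervals below 0, while those of Ppargc1b span 0.

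The diet differences were then taken within each photoperiod. Pparg passed the limma test in all 3, with log2 differences of 0.78 in Long light (SE 0.22, adjusted p = 0.01947), 0.93 in Short light (SE 0.22, adjusted p = 0.003313) and 0.70 in Equal light (SE 0.22, adjusted p = 0.03584). The shares of all genes called were 4.86%, 6.88% and 6.85%. Leaving out the replicate numbered 1 or 2 of every group ended the Pparg call in each photoperiod, with differences between 0.51 and 0.86 remaining, and in Long light it was also lost without the 19 libraries of high muscle or pancreas signal (0.62, adjusted p = 0.2879). Ppara passed in Equal light only (0.33, SE 0.10, adjusted p = 0.02071), with 0.27 in Long light (adjusted p = 0.09037) and 0.19 in Short light (adjusted p = 0.2227). The Equal light call was lost in 4 of the alternatives, and without the 9 libraries off the clock label Ppara passed in Long light (adjusted p = 0.03166) and Short light (adjusted p = 0.0293) as well. Ppargc1a differed by -0.31 in Long light (adjusted p = 0.151), -0.31 in Short light (adjusted p = 0.1087) and -0.38 in Equal light (adjusted p = 0.05479). The interaction of diet and photoperiod passed for none of the 6 genes (adjusted p = 0.9994 for each), nor for any of the 14397 genes, of which 483 had an unadjusted p under 0.05. No difference between these photoperiod values was thus detected.

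By time, the Pparg difference was 0.65 at ZT0, 1.04 at ZT4, 0.97 at ZT8, 0.45 at ZT12, 0.90 at ZT16 and 0.81 at ZT20. The value at ZT4 passed (SE 0.30, adjusted p = 0.04503, 2.36% of all genes called), and that call was lost when any of the replicate numbers was left out. Ppargc1a was nearest to the threshold at ZT16 (-0.56, SE 0.18, adjusted p = 0.05816), where 2.5% of all genes were called. Without the 9 libraries off the clock label it passed there (-0.70, adjusted p = 0.01973), and Ppara passed at ZT4 (0.39, adjusted p = 0.03562, against 0.41 with adjusted p = 0.07591 in all libraries). The interaction of diet and ZT passed for none of the 6 genes (adjusted p = 0.9998). Nor did it pass for any of the 14397 genes, of which 340 had an unadjusted p under 0.05.

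Markers of liver cell types, and of muscle and pancreas, were set beside these results. Their counts stand beside 12.9% of all genes that rose on HFD and 12.6% that fell. Of 12 macrophage and Kupffer cell markers 9 rose on HFD and none fell (median difference 0.22), and their mean level lay between 3.55 and 5.01 log2 CPM in HFD livers and between 3.20 and 4.91 in LFD livers. Of 6 adipocyte markers tested 1 rose, Fabp4 (0.30, SE 0.06, adjusted p = 9.021e-05). The adipocyte mean lay between -0.54 and 2.87 log2 CPM in HFD livers and between -0.47 and 1.96 in LFD livers. Within groups, Pparg correlated with the macrophage mean at r = 0.345, the endothelial mean at 0.323 and the adipocyte mean at 0.311 over the 61 HFD and 62 LFD libraries, which share depth and preparation. For Pparg, r was 0.248 with the stellate mean, -0.282 with the hepatocyte mean, -0.133 with the muscle mean and -0.027 with the acinar mean. The adipocyte markers Adipoq, Cidec and Fabp4 are also on the list of PPAR-gamma targets described below, so the 2 lists are not independent. Rxra correlated with the hepatocyte mean at r = 0.536. The part of cell makeup in the diet differences was not tested. Of 8 endothelial markers 1 rose (Stab2), of 10 stellate cell markers 3 rose (Reln, Colec11 and Ecm1), and of 8 hepatocyte markers 2 rose (Serpina1c and Cyp2e1) and 1 fell (Cps1). All 11 pancreas acinar markers tested fell on HFD (median -1.64) and none of 10 skeletal muscle markers passed. These are markers of tissues other than liver. The acinar mean was above 4 log2 CPM in 3 HFD and 9 LFD libraries, and 3 acinar markers had an HFD median near the lowest value of the data. The part of unequal pancreas content in this fall was not tested. Over all genes 25.5% were called, and the endothelial, stellate and hepatocyte counts lie on either side of that share.

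Most listed targets of PPAR-alpha were also higher on HFD. Of 30 listed targets 24 rose on HFD and none fell, beside 12.9% of all genes that rose, with a median log2 difference of 0.31, against a median of -0.004 over all genes. Those with the smallest p included genes of mitochondrial fatty acid import and oxidation. Cpt2, the inner membrane carnitine palmitoyltransferase, averaged 7.25 ± 0.21 log2 CPM in HFD livers and 6.95 ± 0.25 in LFD livers (SD, n = 61 and 62; log2 difference 0.31, adjusted p = 2.19e-11). Slc25a20, the carnitine-acylcarnitine carrier, differed by 0.28 and Acadm, the medium-chain acyl-CoA dehydrogenase, by 0.35. The fatty aldehyde dehydrogenase Aldh3a2 differed by 0.75 and the pantetheinase Vnn1 by 0.93. The largest differences of the list, named for their size, were those of the omega-hydroxylases Cyp4a14 (1.64, SE 0.37) and Cyp4a10 (1.08, SE 0.26). Ehhadh, Cyp4a31, Cyp4a32, Pdk4, Fabp1 and Acot3 did not pass. The number of targets that rose was 9 of 30 in Long light, 4 in Short light and 19 in Equal light, beside 3.22%, 3.74% and 3.5% of all genes. Their median log2 differences were 0.27, 0.22 and 0.41 in the same order. The interaction of diet and photoperiod passed for none of the 14397 genes, so these counts do not establish a difference between photoperiods.

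PPAR-gamma targets moved in both directions. Of 14 listed 12 were tested, and 7 rose and 3 fell (median 0.21), beside 12.9% of all genes that rose and 12.6% that fell. Those that rose were the lipid droplet genes Fitm1 (0.73, adjusted p = 4.735e-08), Fitm2 (0.16) and Plin4 (0.96), the fatty acid receptor Cd36 (0.72), the fatty acid binding protein Fabp4 (0.30), the monoacylglycerol acyltransferase Mogat1 (0.99) and the acyl-CoA synthetase Acsl1 (0.21). The phospholipid transfer protein Pltp (-0.41, SE 0.12, adjusted p = 0.007005), lipoprotein lipase Lpl (-0.29, SE 0.11, adjusted p = 0.03426) and the desaturase Scd2 (-0.23, SE 0.07, adjusted p = 0.007947) fell. The lipid droplet gene Cidec (0.22) and the adipokine gene Adipoq (-0.17) did not pass.

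PGC1 targets stayed close to the median of all genes. The 18 listed targets are mostly genes of respiration, mitochondrial transcription and gluconeogenesis. Of these 18, 1 rose, the mitochondrial fusion gene Mfn2 (0.10, SE 0.03, adjusted p = 0.01921), and none fell (median 0.004). Of 17 partners and cofactors, the retinoid X receptor Rxrg rose (0.31, SE 0.06, adjusted p = 6.771e-06). Lpin1, a phosphatidate phosphatase that is also known as a coactivator of PPAR-alpha, fell (-0.63, SE 0.14, adjusted p = 0.0003021), as did the receptor coactivator Ncoa2 (-0.06, SE 0.02, adjusted p = 0.03457). The calls in both lists, 1 of 18 and 3 of 17, were a smaller share than the 25.5% called over all genes.

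**Figure D2:**
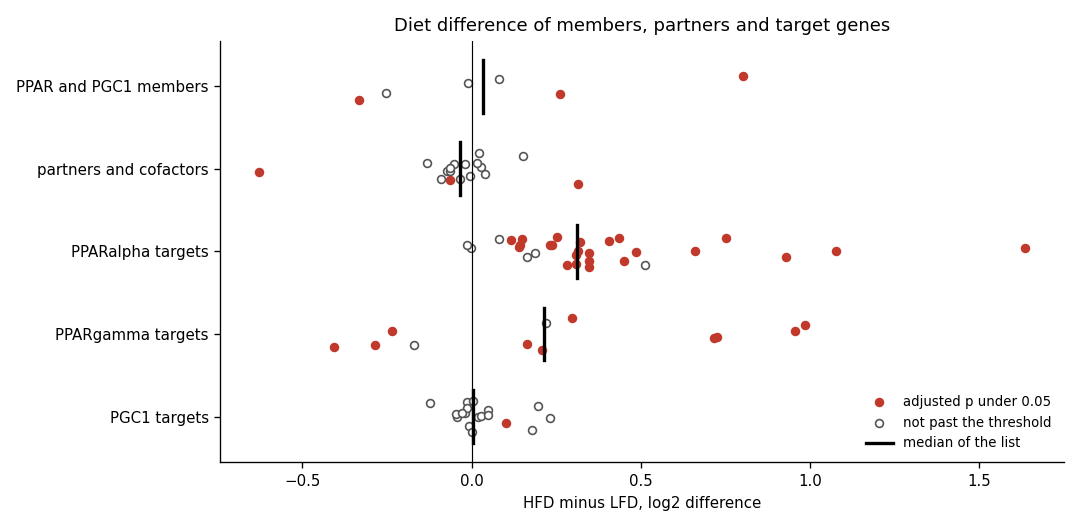
Log2 difference HFD minus LFD of each tested gene in the 6 genes described here and in 4 lists of their partners and targets, filled where the adjusted p was under 0.05, with the median of each list as a bar. Most PPARalpha targets lie to the right of 0, PPARgamma targets lie on both sides, and PGC1 targets gather near 0.

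The daily course was followed next, by a cosine and sine of 24 h in each of the 6 arms of diet and photoperiod. Ppard had the strongest rhythm of the 6 genes and passed in all 6 arms. Of all genes, 21.8% passed in HFD livers of Long light, 14.1% in those of Short light and 16.5% in those of Equal light, against 23.6%, 27.1% and 20.9% in LFD livers. In Equal light the HFD livers had 5.89, 6.29 and 6.32 log2 CPM at ZT0 and 2.89, 2.20, 3.07 and 3.13 at ZT4. The LFD livers of Equal light had 5.81, 5.79 and 4.76 at ZT0 and 2.73, 3.16 and 3.15 at ZT4. Ppard thus dropped within 4 h in both diets with no overlap between the times, and its level then climbed over the following ZTs. In Long light the steep step came later, with 5.31, 5.85 and 5.79 log2 CPM in HFD livers at ZT4 and 3.14, 3.17, 3.54 and 2.80 at ZT8. LFD livers of Long light had 6.496, 6.485, 6.004 and 6.41 at ZT4 and 3.25, 3.79, 5.62 and 3.35 at ZT8. In Short light the highest values came at ZT16, with 5.69, 5.95 and 6.26 in HFD livers and 6.39, 6.33, 6.67 and 3.73 in LFD livers. The low value in that LFD group is from a library whose clock genes lay 5.6 h before its label.

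The fitted amplitude of Ppard (from mean to peak) was between 1.23 and 1.52 log2 units in the 6 arms, a swing of 5.48- to 8.23-fold from trough to peak, and the 6 calls held under every alternative that was run. Its group means spanned 11.52-fold, from 2.82 log2 CPM in HFD livers of Equal light at ZT4 to 6.35 in LFD livers of Long light at ZT4. The fitted peak over both diets fell at ZT 0.80 in Long light (SE 0.48 h), ZT 15.35 in Short light (SE 0.43 h) and ZT 20.26 in Equal light (SE 0.46 h). Without the 9 libraries off the clock label the Ppard peaks were at ZT 1.23, ZT 15.39 and ZT 20.30 in the same order. Over both diets, 45.7% of all genes passed in Long light, 40.2% in Short light and 39.8% in Equal light.

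Ppara and Ppargc1b peaked at other times of day than Ppard. Ppara passed in 5 of the 6 arms, with amplitudes of 0.29 to 0.47 among those, and had an adjusted p of 0.09796 in HFD livers of Short light. It peaked at ZT 15.54 in Long light (SE 0.64 h), ZT 5.33 in Short light (SE 0.91 h) and ZT 11 in Equal light (SE 0.68 h). In LFD livers of Long light it had 7.11, 6.47, 7.04 and 6.85 log2 CPM at ZT4 and 8.37, 7.87 and 7.55 at ZT12, without overlap. Each of these 5 calls except that in LFD livers of Long light was lost in at least one of the alternatives.

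Ppargc1b, the coactivator best known for lipogenic and respiratory targets in liver, lies at chr18:61298136-61400431 on the minus strand of the same assembly. It passed in 5 arms with amplitudes of 0.59 to 0.87. It missed the threshold in HFD livers of Long light (0.40, adjusted p = 0.1001), and passed there without the 9 libraries off the clock label (0.40, adjusted p = 0.02311). None of the 9 is from that arm. Its values and amplitude were thus the same in both fits, and only the shared estimate of spread and the adjustment changed. It peaked at ZT 13.68 in Long light (SE 0.77 h), ZT 4.48 in Short light (SE 0.54 h) and ZT 8.14 in Equal light (SE 0.56 h). In LFD livers of Short light it had 3.68, 4.38 and 3.78 log2 CPM at ZT4 and 1.24, 1.95, 1.96 and 2.16 at ZT12. HFD livers of Short light had 3.15, 3.19, 3.79 and 2.83 at ZT4 and 2.18, 2.59 and 1.97 at ZT12. The times did not overlap in either diet. The calls in HFD livers of Short and Equal light were lost without the replicates numbered 3 (adjusted p = 0.1841 and 0.1157).

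Rxra, although the most abundant, cycled little. It passed in HFD livers of Equal light (amplitude 0.30, adjusted p = 0.01238) and in LFD livers of Long light (0.25, adjusted p = 0.02242). The HFD call was lost without the low library at ZT20 (0.22, adjusted p = 0.06522), and the LFD call was lost without those of high muscle or pancreas signal (0.21, adjusted p = 0.2107). Among single arms, Ppargc1a passed in LFD livers of Equal light only (0.44, peak at ZT 9.21, SE 1.10 h, adjusted p = 0.02864), a call that 6 of the alternatives ended. There it had 3.65, 3.03 and 3.20 log2 CPM at ZT0 and 3.71, 4.73 and 4.49 at ZT4, without overlap. Over both diets, Rxra passed in Short light (0.19, adjusted p = 0.01136) and Equal light (0.25, adjusted p = 0.0005981), and Ppargc1a in Equal light (0.34, adjusted p = 0.006728). The Short light call of Rxra was lost without the replicates numbered 1, 2 or 3 (adjusted p = 0.05761, 0.06762 and 0.06352). The Equal light call of Ppargc1a was lost without those numbered 2 (adjusted p = 0.07592) or 3 (adjusted p = 0.1832). Pparg passed in none of the arms, with adjusted p between 0.4999 and 0.8243.

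**Figure D3:**
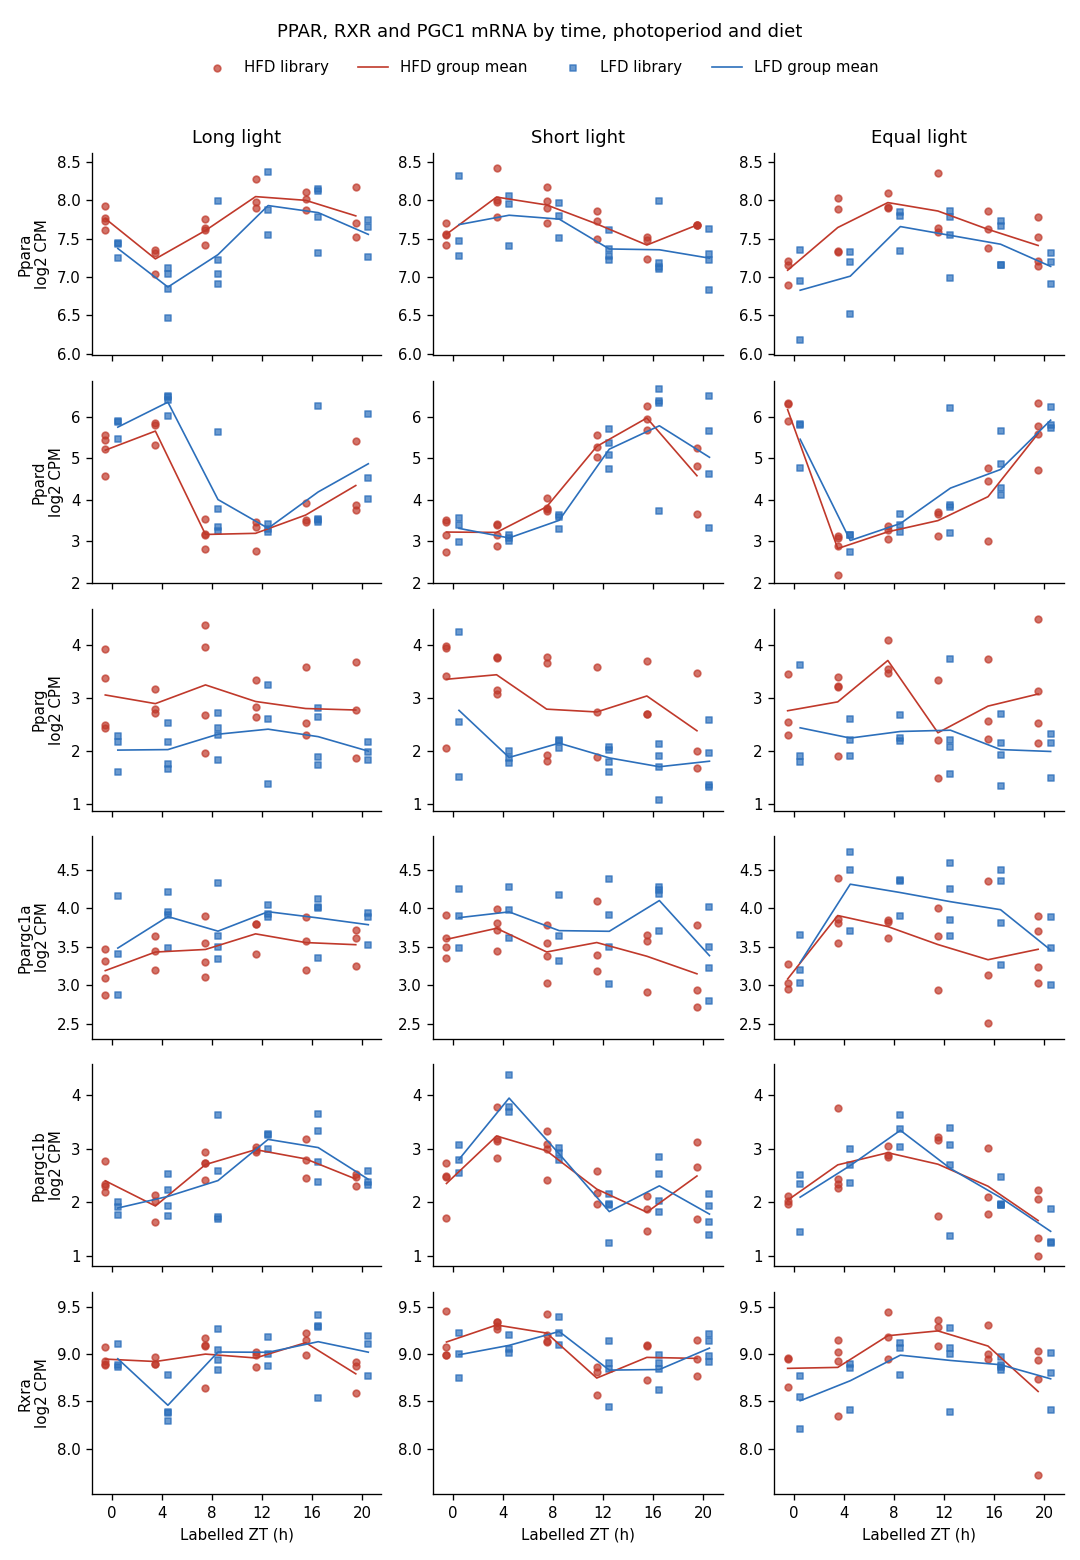
Log2 CPM of each gene against the labelled ZT in h, in Long, Short and Equal light, for every HFD (circles) and LFD (squares) library with lines through the group means. The drop of Ppard comes between ZT0 and ZT4 in Equal light and between ZT4 and ZT8 in Long light, and its highest group means in Short light are at ZT16, while the HFD line of Pparg lies above the LFD line at all but 1 of the 18 points.

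The rhythms were then compared between photoperiods. The rhythms in Long and Short light differed for Ppard (adjusted p = 2.726e-16), Ppargc1b (4.996e-10), Ppara (2.152e-08) and Rxra (0.0006229), but not for Pparg (0.2672) or Ppargc1a (0.3149), and 52.9% of all genes tested passed in this limma comparison. The 4 calls held under every alternative that was run. The peak in Long light came 9.45 h later by ZT than in Short light for Ppard, 9.21 h later for Ppargc1b, 10.22 h later for Ppara and 11.08 h later for Rxra, whose rhythm in Long light itself did not pass (adjusted p = 0.05909). The 15 clock genes moved by a median of 8.26 h in the same comparison, with a range of 6.80 to 10.73 h. All 4 shifts except that of Rxra lay within this range. A shift of the whole clock against the light cycle and a different zero of the ZT scale in each photoperiod cannot be told apart from these values.

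**Figure D4:**
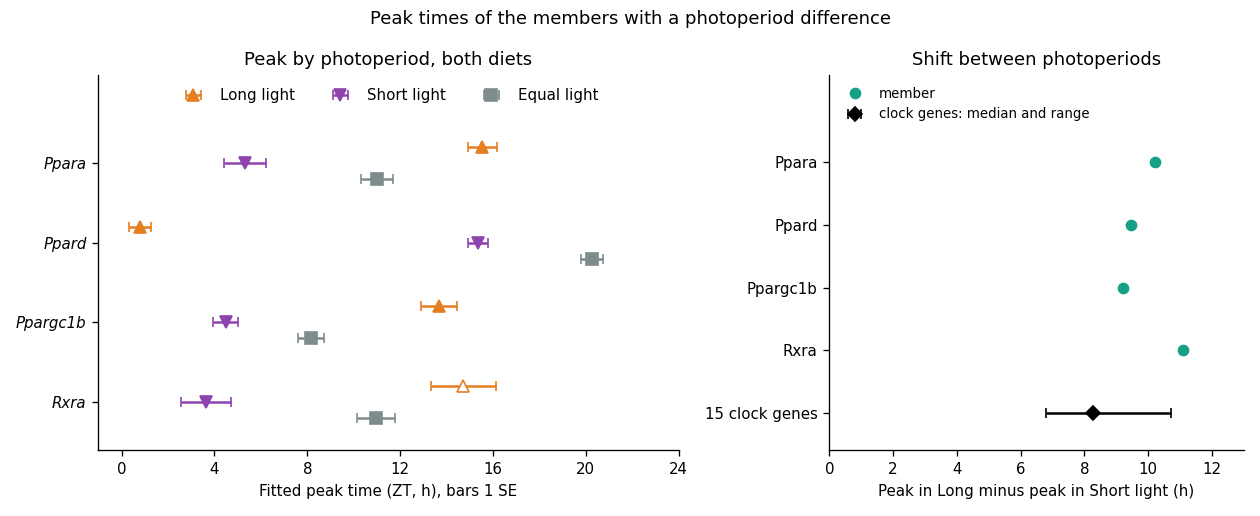
Fitted peak time in h of ZT with 1 SE in Long, Short and Equal light over both diets (left, open where the rhythm did not pass), and the shift of the peak from Short to Long light beside the median and range of 15 clock genes (right). The 4 genes shift by 9.21 to 11.08 h, and the clock genes by 6.80 to 10.73 h.

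The level over the day did not pass between photoperiods for any of the 6 genes, and it did so for 4 of 14397 genes (0.0278%). Ppara came nearest, with a mean of 7.59 ± 0.43 log2 CPM in Long light (SD, n = 41), 7.62 ± 0.35 in Short light (n = 42) and 7.44 ± 0.44 in Equal light (n = 40). Its difference was 0.18 between Long and Equal light (SE 0.07, limma adjusted p = 0.2266) and 0.19 between Short and Equal light (SE 0.07, adjusted p = 0.1518). Rxra differed by 0.15 between Short and Equal light (SE 0.05, adjusted p = 0.164). Between Long and Short light the 6 differences lay between -0.09 and 0.14, with adjusted p = 0.9999 for each. No gene of the table passed there, and 402 had an unadjusted p under 0.05.

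No difference of the rhythms between diets was detected. The rhythm difference between HFD and LFD, averaged over photoperiods, had a limma adjusted p of 0.9999 for each of the 6 genes. It passed for 1 of 14397 genes (0.00695%). Peak times differ between photoperiods, so a change of amplitude partly cancels in this average, and the test is weak against it. The interaction of diet and photoperiod in the rhythm had limma adjusted p of 0.9982 to 0.9998 for the 6 genes. Averaged over photoperiods, Ppard peaked at ZT 20.15 in HFD livers (SE 0.69 h) and ZT 19.79 in LFD livers (SE 0.68 h), with amplitudes of 0.76 in HFD and 0.76 in LFD. Ppargc1b peaked at ZT 8.18 in HFD livers (SE 0.93 h) and ZT 7.62 in LFD livers (SE 0.73 h), and Ppara at ZT 10.87 in HFD livers (SE 1.18 h) and ZT 12.36 in LFD livers (SE 1.03 h). These averages join photoperiods with different peak times, so their amplitudes are smaller than those of single arms. The gaps in peak time between diets were smaller than the sum of the 2 SEs for these 3 genes. Rxra peaked at ZT 8.37 in HFD livers (SE 1.38 h) and ZT 12.75 in LFD livers (SE 1.78 h), a gap larger than that sum, but its averaged rhythm passed in neither diet (adjusted p = 0.07807 in HFD and 0.1982 in LFD).

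Across the 36 group means, the 6 genes followed different neighbours. Ppard ran opposite to Ppargc1b (r = -0.801) and Ppara (r = -0.647), and Ppara ran with Rxra (r = 0.729) and Ppargc1b (r = 0.68). The 3 genes most like Ppara were Pim3 (0.911), the PPAR-alpha target Cpt1a (0.877), which imports fatty acids into mitochondria, and Pdp2 (0.863), a phosphatase that activates pyruvate dehydrogenase. Those most like Ppard were Gfod1 (0.952), Paxx (0.945) and Tecpr2 (0.93). For Pparg they were Adgrv1 (0.897), Dusp22 (0.867) and Entpd5 (0.86), and for Ppargc1a Snhg11 (0.882), Mr1 (0.879) and Esyt2 (0.87). For Ppargc1b they were the cholesterol transporter Npc1 (0.891), Clmn (0.887) and the clock output factor Dbp (0.881), and for Rxra Zcchc24 (0.86), Bcas3 (0.824) and Nfix (0.819). All points share libraries, times and light conditions, so these values describe likeness only.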

How the data were processed

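The deposited table holds 1 log2 value per gene and library. The submitters' processing notes list STAR, Subread 1.6.2 and featureCounts, on mm10 (GRCm38). For options, use of strand and normalization, nothing is stated in these sources. The deposited log2 values behave as log2 CPM with a prior count that averaged 2.0 reads per library. All libraries shared a floor of -3.6124 (0.08176 CPM). Whole reads, within 0.05 read, came back for 99.43% to 99.73% of values per library, and for every value of the 6 genes. A single read was worth 0.0422 CPM on average.

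The table holds no counts, so the log2 values were fitted with limma 3.58.1 (trend, R 4.3.3) and not with a count test. All 123 libraries entered 1 fit over the 14397 of 15398 genes that reached 1 CPM in 3 or more libraries, and contrasts weighted groups equally. limma-voom on the recovered reads was an alternative. Rhythms were fitted with a 24 h cosine and sine per arm, with delta-method errors. Calls used a Benjamini-Hochberg adjusted p under 0.05 over every gene fitted. The fits were tested on simulated data. Replicate numbers follow accession order and pair nothing.

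The genes, lists and tests were chosen with earlier results of these data known. From each list up to 6 genes with the smallest p were chosen, of which 1 is not reported here, and for each of the 6 genes the 3 with the highest correlation over 36 group means, among genes with a mean of at least 2 log2 CPM. Other names were added after their values were seen. The limit of 4 h for the clock check, leaving out those 9 libraries, and leaving out the library with the lowest Rxra were chosen after seeing the data. Promoter windows are from RefSeq (GRCm38.p6).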

Additional observations from a re-analysis of the deposited data

Results flagged for a closer look

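In groups of 4 libraries, 10 of 90 tested sets of values had a library far from the others. Chance alone gives about 1 in 20 for independent sets. These sets are not independent, as the 6 genes share libraries, so no excess over chance is drawn. Of the 10, 6 came from libraries whose clock genes lay more than 4 h from the label. In LFD livers of Long light at ZT16, replicate 2 had the highest Ppard (6.257 log2 CPM, against 3.459 to 3.526 in the others) and the lowest Rxra (8.53). In LFD livers of Short light at ZT16, replicate 4 had the lowest Ppard (3.733, against 6.332 to 6.667) and the highest Ppara (7.994, against 7.103 to 7.182). In HFD livers of Equal light at ZT4, replicate 3 had the lowest Pparg (1.89) and the highest Ppargc1b (3.759). The other 4 were in libraries whose clock genes lay within 4 h of the label. The deviations were -1.3, -1.5, -2.3 and 2.7 h, in the order given next. Ppargc1a was lowest in replicate 3 of LFD livers at ZT16 in Long light (3.361) and in replicate 3 of LFD livers at ZT16 in Short light (3.7). Ppargc1b was highest in replicate 3 of LFD livers of Equal light at ZT16 (2.47), and Rxra was lowest in replicate 3 of HFD livers of Long light at ZT8 (8.64).

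The rhythm in Long light differed from that in Short light, by limma's test of the difference itself, for Ppard (adjusted p = 2.726e-16), Ppargc1b (4.996e-10), Ppara (2.152e-08) and Rxra (0.0006229).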

How the results depend on the processing

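Of 3174 values of the 6 genes under the alternatives, 3047 kept their direction and side of the threshold, 92 dropped out of significance, 35 became significant and 0 turned their direction, where a turn was counted only for a value past the threshold in either fit. Between diets, Ppard reached -0.41 without the 19 libraries of high muscle or pancreas signal (1 group was left with 1 library, assumed to vary like the others), and Rxra 0.10 without HFD Equal light ZT20 replicate 1, which also raised the genes called in Equal light to 4. Over the fits that leave out replicates the Rxra value was 0.0618 to 0.112. Counts of genes called are of the 6 genes. The main fit called 1 for diet in Short light, 1 in Long light and 2 in Equal light. Pparg at ZT4 was its only diet call at a single ZT. Its ZT test called all but Pparg, and 5 passed for the rhythm over all arms. Its rhythm calls were Ppara and Ppard in HFD Long light, and Ppard and Ppargc1b in HFD Short light. In LFD Equal light only Pparg and Rxra failed, and over the Short light arms only Pparg and Ppargc1a. Without those 19 libraries the genes called were 0 for diet in Long light, 0 for diet at ZT4, 3 for ZT, 2 for the rhythm in LFD Equal light and 3 for the rhythm over all arms. Library number as a covariate left 1 called for diet in Equal light. The rhythm in HFD Long light kept 1 called gene with 12 h terms added, with ZT as a factor, with voom and with quantile normalization. Without the 2 libraries farthest from their group, 2 were called in LFD Equal light. Without the 9 libraries off the clock label 13 results became significant and 0 were lost, with 2 genes called for diet in Long light, 2 in Short light, 2 at ZT4, 1 at ZT16 and 4 for the rhythm in HFD Short light. Leaving out each replicate number in turn gave 0 to 1 genes called for diet in Equal, Long and Short light, 0 to 0 at ZT4, and 0 to 1 at ZT0, ZT8 and ZT16. It gave 3 to 4 for ZT, 1 to 2 for the rhythm in HFD Long and HFD Short light, 2 to 5 in LFD Equal light and 2 to 4 for the mean of the Short light arms. These fits hold fewer libraries. For the others the cause was not tested. The share of all genes called under each alternative is not set beside these counts. Whether a change is particular to the 6 genes was thus not tested. No paired analysis was possible because replicate numbers only follow accession order.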

Other observations

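Between Long and Short light the rhythm differed for 52.9% of all genes tested. In the lists it differed for 12 of 17 partners and cofactors, 15 of 18 PGC1 targets, 16 of 30 PPARalpha targets and 5 of 12 PPARgamma targets. The count of PPARalpha targets is near the share of all genes and that of PPARgamma targets is below it. Between HFD and LFD the rhythm averaged over photoperiods passed for no gene in these 4 lists.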
